A study of Mus musculus with 15 samples.

Results

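Small nucleolar RNA (snoRNA) genes are described here in mouse skin. They were selected on their measured FPKM, as the rows of the deposited gene table with the biotype snoRNA and an FPKM (reads scaled by gene length and library size) of at least 0.5 in at least 3 of the 12 skin libraries. This gave 143 of the 1507 snoRNA rows, in a table of 54532 rows, and 309 snoRNA rows had a read in any library. By name, 30 of the 143 were C/D box snoRNAs (Snord), 15 were H/ACA box snoRNAs (Snora), and 98 had other names, most of them Gm names of predicted genes. The measured level chose these genes, so the level itself is a description.

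Skin RNA came from 4 groups of 3 libraries. They were Trpv3 knockout skin given MC903 for 7 days, untreated Trpv3 knockout skin, wild type skin given MC903 for 7 days and untreated wild type skin. Skin treated with MC903, a vitamin D analogue also known as calcipotriol, becomes inflamed and serves to model atopic dermatitis, and TRPV3 is a calcium-permeable channel of keratinocytes. The series' design speaks of several conditional Trpv3 knockout mice, in which a Cre recombinase deletes the gene in chosen cells. The labels say Trpv3-knockout only, and the sources used here give no Cre line, strain, sex or age. Nothing in the labels ties each library to its own mouse, so p-values measure only the spread between libraries, which may be technical.

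A snoRNA is a short, stable RNA of the nucleolus that pairs with another RNA, mostly ribosomal RNA, and guides its chemical modification. C/D box snoRNAs direct ribose methylation by fibrillarin, and H/ACA box snoRNAs direct pseudouridine formation by dyskerin. Most mammalian snoRNAs are processed from introns of host genes, many of which code for ribosomal proteins or other parts of the translation machinery. A mature snoRNA has no poly-A tail. These libraries were made from RNA bound to poly-T beads and selected for fragments of 370 to 420 bp. The 143 genes were 64 to 246 bases long (median 122), and the library protocol names no step that marks strand. Reads of mature snoRNAs, of their precursors and of unspliced host transcripts therefore cannot be told apart here.

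Sequences of 6 leading genes are shown with the box letters found in them. In Snord72 and Snord34 only box D was found. They were read from GENCODE M21 on GRCm38 (mm10) at the coordinates in the deposited table. Each was called higher in MC903 than in untreated wild type skin and lower in MC903 knockout than in MC903 wild type skin. In the C/D sequences, capitals mark TGATGA (box C) within the leading 30 bases, where it was found, and CTGA (the core of box D) within the closing 15. In the H/ACA sequences, capitals mark ANANNA (box H) starting at 35% to 65% of the length and ACA within the closing 8 bases.
Snord72: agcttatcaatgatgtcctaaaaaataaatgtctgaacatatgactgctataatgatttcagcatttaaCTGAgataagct
Snord32a: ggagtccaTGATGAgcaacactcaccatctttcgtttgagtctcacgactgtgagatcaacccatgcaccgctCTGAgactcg
Snord34: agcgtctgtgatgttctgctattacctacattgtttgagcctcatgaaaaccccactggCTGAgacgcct
Snora31: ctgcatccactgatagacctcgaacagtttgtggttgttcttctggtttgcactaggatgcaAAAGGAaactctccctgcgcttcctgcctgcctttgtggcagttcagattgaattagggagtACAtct
Snora17: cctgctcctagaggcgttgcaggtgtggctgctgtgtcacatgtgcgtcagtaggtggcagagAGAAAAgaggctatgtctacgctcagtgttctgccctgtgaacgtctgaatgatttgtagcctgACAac
Snora57: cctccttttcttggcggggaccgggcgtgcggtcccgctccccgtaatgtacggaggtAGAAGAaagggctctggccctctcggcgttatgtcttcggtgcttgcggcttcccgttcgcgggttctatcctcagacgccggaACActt
Snord72 (chr15:5118404-5118484, plus strand) lies in an intron of Rpl37. Snord32a (chr7:45127382-45127464, minus strand) and Snord34 (chr7:45126601-45126670, minus strand) share the host Rpl13a. Snora31 (chr14:75847905-75848034, plus strand) lies in an intron of Tpt1. Snora17 (chr2:26639190-26639321, minus strand) and Snora57 (chr19:8888538-8888685, minus strand) lay within no longer gene of the table on their strand. Snora57 lies within Lbhd1 on the opposite strand, and without strand their reads cannot be told apart.

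The box letters followed the names. Both C/D motifs, searched on the annotated strand only, were found in 18 of the 30 Snord genes and in 0 of the 15 Snora genes. Both H/ACA motifs were found in 14 of the 15 Snora genes and in 1 of the 30 Snord genes. Of the 98 genes with other names, 13 held the C/D pair and 46 the H/ACA pair. Among 1364 snoRNA rows below the level, 20.2% held the C/D pair and 38.6% the H/ACA pair. Among 4062 other small RNA rows of 60 to 250 bases, these shares were 0.0492% and 4.26%.

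Few reads lay behind each value. Multiplying FPKM by length gave whole reads, and a gene had 0.25 to 31.6 reads per library on average (median 1.92). Only 29 of the 143 genes averaged at least 5 reads, and 539 of the 1716 values were 0 reads. Because the genes are short, 1 read on 100 bases was already worth an FPKM of 0.496 to 0.615, so FPKM looks high for few reads. It was worth 0.596 to 0.615 in MC903 wild type, 0.496 to 0.523 in untreated wild type and 0.512 to 0.553 in knockout libraries. At some lengths a single read therefore reached the level in MC903 wild type libraries only, which favours them in the choice of genes. Protein-coding genes in the same test had a median length of 4144 bases. At the level itself, Gm25520, Gm24346 and Gm22327 were just inside, with third-highest values of 0.507, 0.518 and 0.569 FPKM. Gm25406, Gm25428 and Gm22516 were just outside, with 0.499, 0.485 and 0.482 FPKM. The level was reached in all 12 libraries by 20 genes and in exactly 3 by 23 genes. Gm25588 alone reached it only through MC903 wild type libraries, where it had 2, 2 and 3 reads, against 0 reads in every untreated wild type library and every MC903 knockout library. Other genes needed these libraries too, and how many was not counted. Gm22327 had 0.554, 0.569 and 1.65 FPKM in MC903 wild type libraries, 0.994 FPKM in untreated knockout replicate 3 and 0 in all others.

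The 12 skin libraries had 16869716 to 18485698 recovered reads on genes. Trpv3 itself read 6.82, 6.78 and 4.73 FPKM in MC903 skin labelled knockout and 3.17, 3.64 and 2.62 FPKM in untreated skin labelled knockout. It read 16.08, 16.97 and 19.0 FPKM in MC903 wild type skin and 2.06, 2.71 and 1.13 FPKM in untreated wild type skin. The untreated libraries labelled knockout were therefore not below wild type in Trpv3 reads. The sources used here do not give the deleted part of the gene, or the cells it is deleted in, so these reads do not check the label, and "knockout" below means labelled so.

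MC903 wild type skin stood apart in snoRNA reads. All 143 genes together had 464, 398 and 407 reads in the MC903 knockout libraries and 422, 401 and 303 in the untreated knockout libraries. They had 926, 919 and 1033 reads in the MC903 wild type libraries and 402, 483 and 336 in the untreated wild type libraries. In RPM, reads scaled to each library's reads on genes, this was 50.8 to 58.2 in MC903 wild type skin, against 16.9 to 26.7 in the other 9 libraries, with no overlap. These genes were chosen on the same values, by a level that favours MC903 wild type libraries. Over all 1507 snoRNA rows, without that choice, RPM was 53.6 to 61.6 in MC903 wild type skin and 18.8 to 30.1 in the other 9 libraries. C/D genes had 282, 290 and 284 reads in MC903 wild type libraries and 84, 110 and 84 in untreated wild type libraries. H/ACA genes had 252, 203 and 301 reads in MC903 wild type libraries and 71, 74 and 41 in untreated wild type libraries. In knockout skin the C/D genes had 130, 126 and 99 reads with MC903 and 111, 82 and 100 untreated. The H/ACA genes had 72, 71 and 73 reads in MC903 knockout skin and 57, 69 and 39 in untreated knockout skin. A few genes weighed heavily in these sums. The 10 genes with most reads on average held 36% to 44% of the reads of the 143 in MC903 wild type libraries and 26% to 30% in the others. That average includes the MC903 wild type libraries. Most H/ACA reads in MC903 wild type libraries came from Snora57, Snora31 and Snora17.

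**Figure D1:**
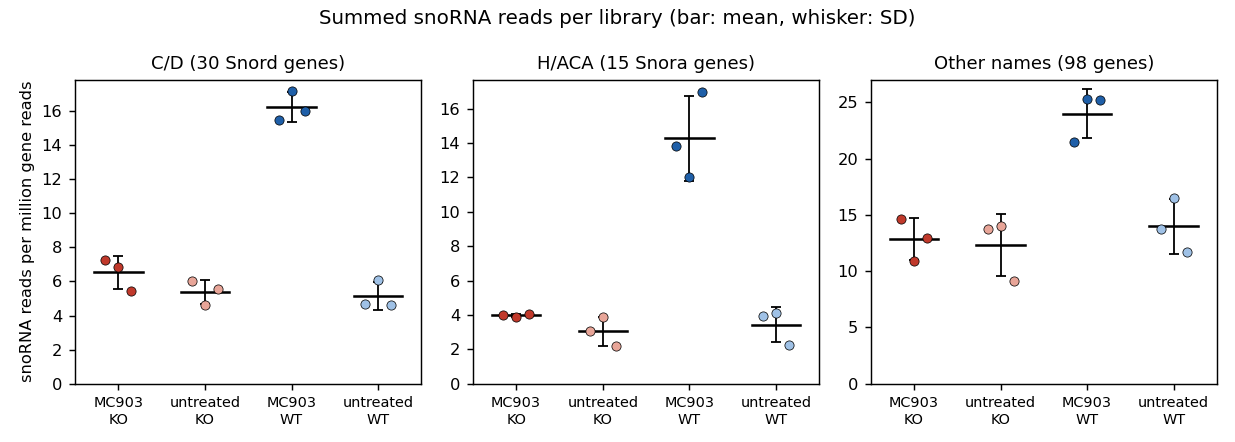
Reads of the C/D, H/ACA and otherwise named snoRNA genes in RPM (reads scaled to each library's reads on genes), 1 point per library in 4 groups of 3, with the mean and SD. In all 3 panels the MC903 wild type libraries lie above the libraries of the other groups.

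In wild type skin, more snoRNA genes were higher with MC903 than lower. The test was limma on log2(FPKM + 0.5) over 17646 genes, with adjusted p below 0.05 as a call. Log2 fold changes below are on that scale, with their standard error (SE), and understate changes of low genes. MC903 wild type skin had 47 genes higher and 4 lower than untreated wild type skin. Over all genes tested, 32.6% were called higher, 30.3% lower and 63.0% in either direction. The share of the 143 called higher was thus close to that over all genes, and the share called lower was smaller. The 143 genes had a median log2 fold change of 0.85, against 0.02 over all genes tested. Of the 30 C/D genes 16 rose and 1 fell, of the 15 H/ACA genes 9 rose and 0 fell, and of the 98 others 22 rose and 3 fell. The medians were 1.61 for C/D, 1.46 for H/ACA and 0.68 for the others. Of the 47 genes called higher and 4 called lower, 8 had a group with 0 reads in all libraries and 6 rested on fewer than 10 reads over the 6 libraries. With a group at 0 set to 3 reads, and leaving out 21 genes with at most 3 reads in each of the groups, the median of the remaining genes was 0.999. Among the 29 genes with at least 5 reads on average, 15 rose and 2 fell. That average includes the MC903 wild type libraries, so a rise there helps a gene to reach it. All 3 MC903 wild type values lay above the untreated wild type values in 53 of the 143 genes and below them in 4, which over all genes tested held for 33.0% and 31.1%.

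Snord72, in an intron of the ribosomal protein gene Rpl37, was the C/D gene with most reads. It had 31.7, 29.6 and 33.8 FPKM in MC903 wild type skin (43, 39 and 46 reads), against 6.82, 7.34 and 5.81 FPKM in untreated wild type skin (11, 12 and 9 reads). Every MC903 wild type library exceeded every other library. The log2 fold change was 2.17 (SE 0.18, limma adjusted p = 1.78e-06). Snord104, within no host gene of the table, had 29.0, 24.6 and 43.4 FPKM in MC903 wild type skin, against 7.18, 13.5 and 7.47 FPKM in untreated wild type skin. Its groups did not overlap, and the log2 fold change was 1.75 (SE 0.42, limma adjusted p = 0.00374). Snord53, in Wdr43, a gene of rRNA processing, had 13, 38 and 20 reads in MC903 wild type skin, against 7, 11 and 1 in untreated wild type skin. It rose by 2.28 on the log2 scale (SE 0.61), although the MC903 replicates differed widely.

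Several C/D genes came from clusters within a single host. Rpl13a, a ribosomal protein gene, holds Snord32a, Snord34 and Snord35a, and snoRNAs of this locus are known to act in the cell death caused by lipid overload in cultured rodent cells. Snord32a had 12, 11 and 10 reads in MC903 wild type skin, against 1, 0 and 1 in untreated wild type skin. Snord34 had 3, 5 and 2 reads in MC903 wild type skin, against 0 reads in each untreated wild type library. Snord35a had 10, 22 and 7 reads in MC903 wild type skin, against 3, 0 and 1 in untreated wild type skin. All 3 were called higher, with limma adjusted p of 0.00241, 0.000314 and 0.00133. The non-coding gene 2410006H16Rik holds Snord49a, Snord49b and Snord65, and these rose by 3.10, 2.77 and 2.63 on the log2 scale. Snord73a, in Rps3a1, rose by 2.73 (SE 0.78). Snord89 and Snord91a, also among the C/D genes with most reads, were not called (log2 fold changes of 1.10 and -0.77, SE 0.55 and 0.59).

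Snord123 moved the other way. It lies in the non-coding transcript Snhg18 and had 4, 2 and 2 reads in MC903 wild type skin, against 11, 11 and 9 in untreated wild type skin. In knockout skin it had 1, 2 and 2 reads with MC903, against 8, 4 and 9 untreated. It was called lower in both genotypes, by -1.56 in wild type and -1.63 in knockout skin (SE 0.30 each, limma adjusted p = 0.000864 and 0.00111). Snhg18 was lower as well, by -1.004 in wild type and -0.74 in knockout skin (SE 0.12 each). Snord123 was the only gene of the 143 called lower in both genotypes.

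Among H/ACA genes, Snora31 had the lowest adjusted p. It lies in Tpt1, which codes for the translationally controlled tumour protein. It had 24.8, 27.4 and 38.9 FPKM in MC903 wild type skin (54, 58 and 85 reads), against 4.64, 2.67 and 3.22 FPKM in untreated wild type skin (12, 7 and 8 reads). The log2 fold change was 2.95 (SE 0.31, limma adjusted p = 8.87e-06). Snora57 had most reads of all 143 genes, with 94, 30 and 99 in MC903 wild type skin and 12, 25 and 13 in untreated wild type skin. Its second MC903 replicate was far below the others, and the groups still did not overlap (log2 fold change 2.20, SE 0.46). Snora17 had 37, 42 and 34 reads in MC903 wild type skin, against 9, 12 and 5 in untreated wild type skin, and rose by 2.27 (SE 0.41). Snora78 had 15, 12 and 15 reads in MC903 wild type skin, against 2, 0 and 1 in untreated wild type skin, and rose by 3.08 (SE 0.40). Its annotated host, Snhg9, is listed at 0 in all 12 libraries, and it also lies within the span of the ribosomal protein gene Rps2 on the opposite strand, whose reads cannot be told apart from its own. Snora62, Snora69 and Snora41 rose by 2.66, 1.86 and 1.32, while Snora34 read 2, 7 and 2 in MC903 wild type skin, against 3, 4 and 3 in untreated wild type skin, and was not called.

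Of the 98 genes with other names, 3 that rose and the 3 that fell serve as examples. Gm24494 lies in Rabggtb, a subunit of a protein prenylation enzyme, and had 22, 11 and 17 reads in MC903 wild type skin, against 2, 3 and 7 in untreated wild type skin. Gm25835 lies in Eif4a1, a helicase of translation initiation, and had 11, 17 and 10 reads in MC903 wild type skin, against 3, 1 and 5 in untreated wild type skin. Gm22806, in the cell cycle gene Cks2, had 4, 4 and 3 reads in MC903 wild type skin, against 1, 0 and 1 in untreated wild type skin. The 3 otherwise named genes called lower were Gm24166, with 0, 0 and 3 reads in MC903 wild type skin against 14, 9 and 6 in untreated wild type skin, and Gm25117 and Gm22952, both at 0 reads in every MC903 wild type library.

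**Figure D2:**
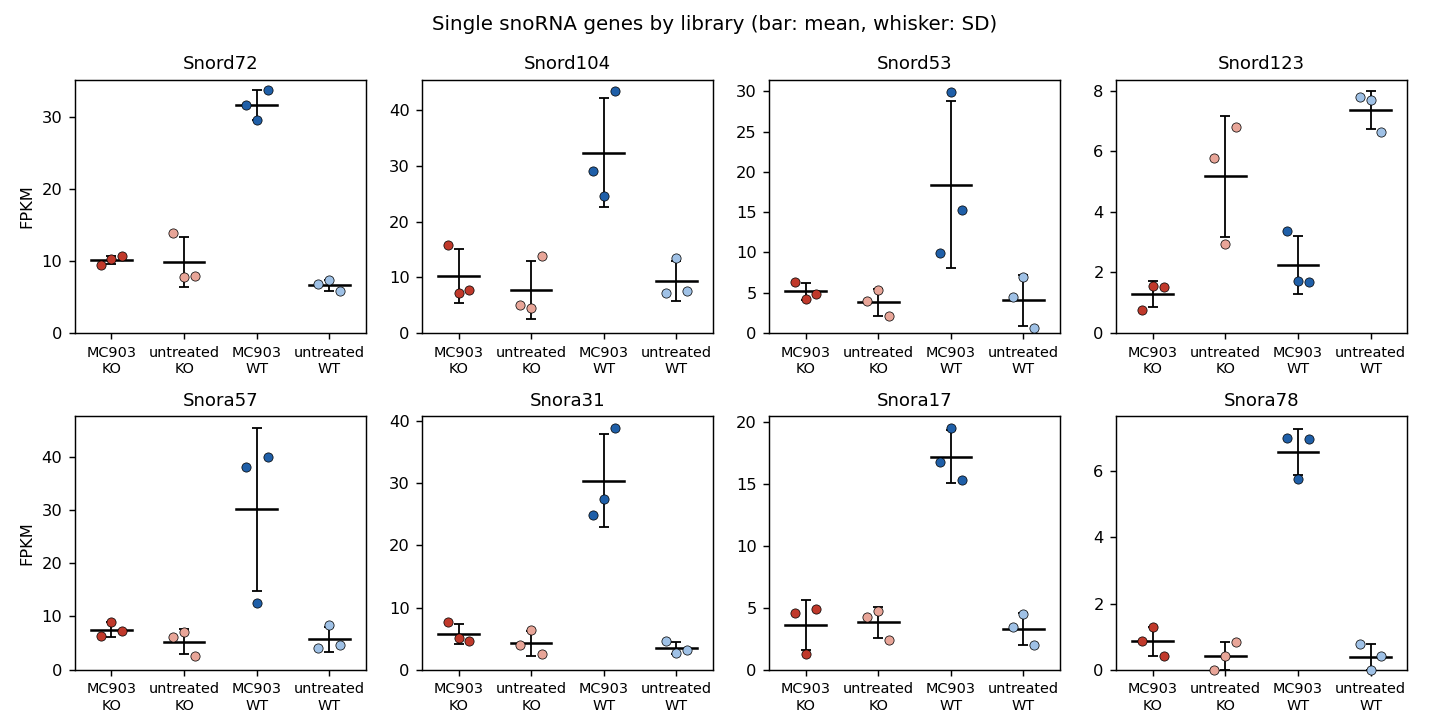
FPKM of 4 C/D genes (top) and 4 H/ACA genes (bottom) in each library, with the mean and SD of 3 libraries per group. All but Snord123 are highest in the MC903 wild type libraries, while Snord123 is low in MC903 skin of both genotypes, and the second MC903 wild type library of Snora57 reads 12.5 FPKM against 38.0 and 39.8 in the others.

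In knockout skin, few snoRNA genes were called. MC903 knockout skin had 9 genes higher and 2 lower than untreated knockout skin, where 47.9% of all genes tested were called, 25.0% higher and 23.0% lower. Both counts are smaller shares of the 143 genes, a difference that was not tested. The 143 genes had a median log2 fold change of 0.02, against 0.00 over all genes tested. Of the C/D genes 2 rose and 1 fell, of the H/ACA genes 2 rose and 1 fell, and of the others 5 rose. Snord72 had 14, 15 and 16 reads in MC903 knockout skin, against 22, 12 and 12 in untreated knockout skin (log2 fold change 0.09, SE 0.18). Snora31 had 18, 12 and 11 reads in MC903 knockout skin, against 10, 16 and 6 in untreated knockout skin (0.44, SE 0.31). In both genes these groups overlapped. The MC903 knockout values all lay above the untreated knockout values in 10 of the 143 genes and below them in 4, against 32.0% and 31.0% of all genes tested.

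The comparisons of MC903 with untreated skin share no libraries between genotypes. Of the 47 genes higher in wild type skin, 8 were also called higher in knockout skin, which is 17.02% of the wild type list and 88.9% of the knockout list of 9. They were Snord35a, Snord65, Snora41, Snora62, Gm22571, Gm22806, Gm23639 and Gm24727. The knockout call of 5 of these rested on the processing: it was lost in 13 of 21 repeats with other settings or without a library for Gm22571, 8 of 22 for Snora41, 8 of 21 for Snora62, 7 of 21 for Snord35a and 6 of 21 for Snord65. Gm22806 had 5, 5 and 3 reads in MC903 knockout skin, against 0 reads in each untreated knockout library (limma adjusted p = 4.05e-05). Gm24727, in Gsr, the gene of glutathione reductase, had 15, 12 and 4 reads in MC903 knockout skin, against 5, 0 and 0 in untreated knockout skin. Gm23639 had 6, 6 and 7 reads in MC903 knockout skin, against 0, 2 and 1 in untreated knockout skin. Gm26440, which lies within Lats2 on the opposite strand, was the ninth, with 4, 10 and 4 reads in MC903 knockout skin, against 1, 3 and 1 in untreated knockout skin. Snora34, in Kansl2, fell in knockout skin, with 1, 0 and 0 reads with MC903, against 3, 3 and 4 untreated (log2 fold change -1.53, SE 0.36).

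With MC903, the genotypes differed in many snoRNA genes. MC903 knockout skin had 2 genes higher and 42 lower than MC903 wild type skin, where 25.9% of all genes tested were called higher, 26.1% lower and 52.1% in either direction. The share called lower was thus near that over all genes, and the share called higher was smaller. The median log2 fold change was -0.66 over the 143 genes and -0.03 over all genes tested. Of the 30 C/D genes 12 were lower, of the 15 H/ACA genes 8 were lower, and of the 98 others 22 were lower and 2 higher. This comparison shares its MC903 wild type libraries with the comparison within wild type skin, so the lists are not independent. All MC903 knockout values lay above the MC903 wild type values in 2 of the 143 genes and below them in 52, against 31.0% and 31.7% of all genes tested. Snord72 averaged 10.2 ± 0.58 FPKM in MC903 knockout skin and 31.7 ± 2.11 FPKM in MC903 wild type skin (SD, n = 3 each), a log2 fold change of -1.60 (SE 0.18, limma adjusted p = 4.11e-05). Snora31 averaged 5.77 ± 1.63 FPKM in MC903 knockout skin and 30.4 ± 7.51 FPKM in MC903 wild type skin, a log2 fold change of -2.31 (SE 0.31). Gm25835 had 2, 0 and 0 reads in MC903 knockout skin, against 11, 17 and 10 in MC903 wild type skin, and fell by 3.06 (SE 0.45). Snord58b, in the ribosomal protein gene Rpl17, had 0, 1 and 2 reads in MC903 knockout skin, against 23, 9 and 10 in MC903 wild type skin, and fell by 3.43 (SE 0.71).

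Both genes that were higher in MC903 knockout skin had few reads. Gm26440 had 4, 10 and 4 reads in MC903 knockout skin, against 1, 3 and 2 in MC903 wild type skin. DQ267102, in the imprinted non-coding transcript Rian, had 1, 1 and 5 reads in MC903 knockout skin, against 0 reads in each MC903 wild type library (limma adjusted p = 0.0208). Rian averaged 1.54 ± 0.28 FPKM in MC903 knockout skin and 0.798 ± 0.20 FPKM in MC903 wild type skin (SD, n = 3 each).

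In untreated skin only Gm26109 passed the test between genotypes. Over all genes tested, 11.7% were called there, 7.15% higher and 4.55% lower. Gm26109 lies in Hspa9, the gene of a mitochondrial chaperone, and had 2, 3 and 1 reads in untreated knockout skin, against 0 reads in each untreated wild type library (limma adjusted p = 0.0271). At an unadjusted p below 0.05 there were 12 of the 143 genes, against 4996 of all 17646 genes tested. Limma voom on the recovered reads called 0 of the 143, against 2434 of the 17646. All untreated knockout values lay above the untreated wild type values in 9 genes and below them in 3, against 16.9% and 14.2% of all genes tested.

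Whether the response to MC903 differed with genotype was itself tested. It was called in 23 of the 143 genes, with 1 larger and 22 smaller in knockout than in wild type skin, where 39.7% of all genes tested were called, 20.0% larger and 19.7% smaller. The share of snoRNA genes with a smaller response was thus not above that over all genes. These were 8 C/D genes, 4 H/ACA genes and 11 others. The response differed by -2.09 in Snord72 (SE 0.26), -2.51 in Snora31 (SE 0.43), -2.47 in Snora17 (SE 0.57) and -2.45 in Snora78 (SE 0.56), on the log2 scale. Snord123 gave -0.07 (SE 0.43), and Snora41 gave -0.23 (SE 0.52), neither of them called.

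**Figure D3:**
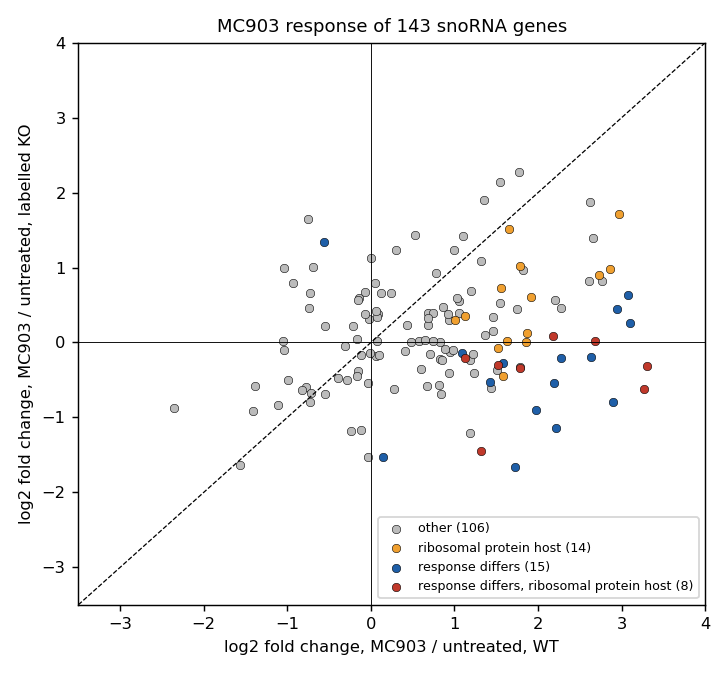
Log2 fold change of 143 snoRNA genes with MC903 in knockout skin (vertical) and in wild type skin (horizontal), with equality dashed. Blue and red mark the 23 genes whose response differed between genotypes, with red for those in ribosomal protein hosts. Orange marks genes in ribosomal protein hosts whose response was not called different, and grey marks the remaining genes. Most points lie right of zero and below the dashed line. The 22 genes in ribosomal protein hosts, those named Rpl or Rps and a number, all lie right of zero.

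Position in the genome tied many of these genes together. Of the 143 genes, 116 lay within a longer gene on the same strand, 111 of them in an intron and 5 overlapping an exon. There were 95 such hosts, 101 of the 116 genes had a protein-coding host, and 18 hosts held at least 2 of the genes. Genes within 1 host share its transcript and are not independent.

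The 22 genes within 14 ribosomal protein genes, taken by names of Rpl or Rps and a number, moved together. Rpsa, also a ribosomal protein gene, was missed by this rule, and its Snora62 and Gm26448 were counted with other hosts. This split of hosts was not planned, and the 22 genes had passed a level that favours MC903 wild type libraries. In MC903 wild type skin the 22 genes had 291 to 313 summed reads per library, against 89 to 100 in untreated wild type skin. In knockout skin the 22 genes had 102 to 116 with MC903, against 86 to 109 untreated. All 22 had positive log2 fold changes with MC903 in wild type skin (1.01 to 3.31, median 1.78), and 17 were called higher, where 32.6% of all genes tested were. In knockout skin their median was 0.06, and 2 were called higher, where 25.0% of all genes tested were. Between genotypes with MC903, all 22 had negative values (-3.43 to -0.63, median -1.70), and 15 were called lower, where 26.1% of all genes tested were. For both of these comparisons all 22 kept their direction when FPKM was scaled to TPM or by total reads. The 94 genes with other hosts had 23 called higher and 3 lower with MC903 in wild type skin (median 0.70), and the 27 genes with no host had 7 higher and 1 lower (median 0.07). How the host classes differ was not tested.

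The 14 ribosomal protein hosts of this class themselves moved less in wild type skin. With MC903, 13 of the 14 were called higher in wild type skin, with a median log2 fold change of 0.90, and 21 of the 22 snoRNA genes had a larger fold change than their host. In knockout skin 10 of the 14 hosts were called higher with MC903, with a median of 0.46, and 17 of the 22 snoRNA genes lay below their host. Between genotypes with MC903, 9 hosts were called lower (median -0.39), and all 22 snoRNA genes lay below their host. Relative to all genes tested, the median of the 14 hosts was 0.88 with MC903 in wild type skin and -0.36 between genotypes with MC903 as deposited, and 0.83 and -0.33 under TPM scaling. Rpl17 rose by 1.36 in knockout and 0.63 in wild type skin (SE 0.20 each), a difference that was not called, while its Snord58b gave -0.62 in knockout and 3.26 in wild type skin (SE 0.71 each). Tpt1 gave 0.06 in wild type skin (SE 0.11, not called) while its Snora31 gave 2.95. Ribosomal protein genes have many processed copies in the genome, and reads shared with them make the level of a host uncertain.

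Over all hosts, 113 pairs of a snoRNA gene and a tested host gene could be compared. With MC903 in wild type skin, 33 of 38 snoRNA genes called higher had a host called higher, 5 had a host without a call, and 0 had a host called lower. Of the 92 tested hosts, 60 were called higher and 12 lower. Across the pairs, which share libraries and in part hosts, the log2 fold changes had a Pearson r of 0.57 and a Spearman rho of 0.56. With MC903 in knockout skin, hosts were still called higher in 50 cases and lower in 7, whereas 8 snoRNA genes of these pairs were called higher, with an r of 0.13 and a rho of 0.06. In MC903 knockout against MC903 wild type skin, 33 snoRNA genes of these pairs were lower, and of their hosts 21 were lower, 1 was higher and 11 had no call. Of the 92 tested hosts, 32 were called lower and 21 higher there, with an r of 0.37 and a rho of 0.43 across the pairs.

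**Figure D4:**
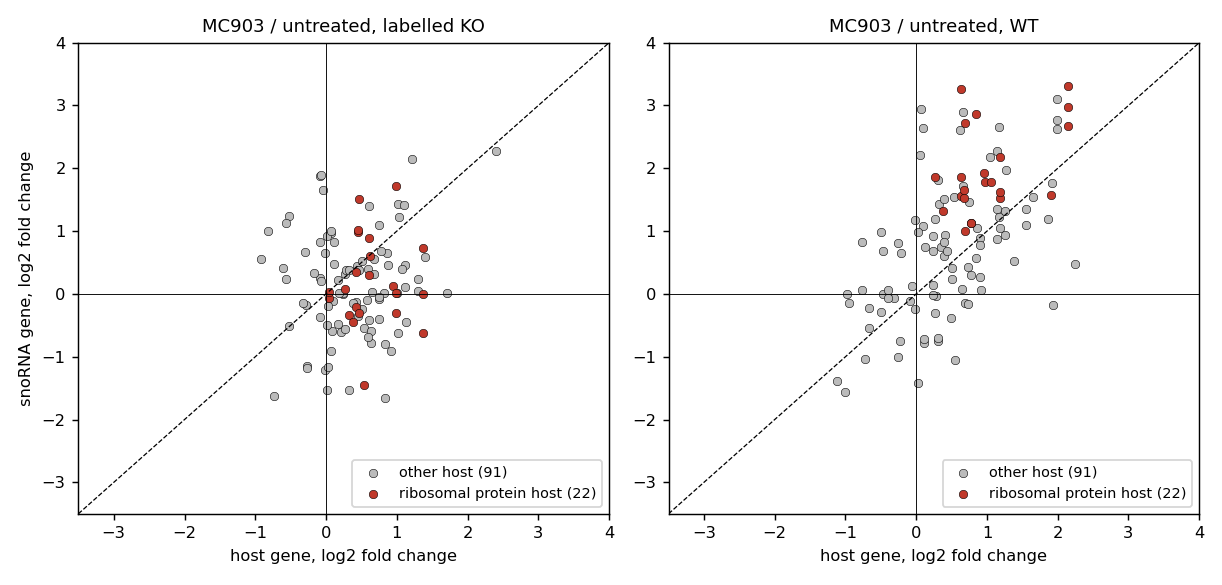
Log2 fold change with MC903 of each snoRNA gene (vertical) and of its host gene (horizontal) in knockout skin (left) and wild type skin (right), with equality dashed. Red marks genes in ribosomal protein hosts, those named Rpl or Rps and a number. In wild type skin 21 of the 22 red points lie above the dashed line, and in knockout skin 17 of the 22 lie below it.

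The mRNAs of the proteins that bind snoRNAs were measured with far more reads. All 4 core C/D proteins and all 4 core H/ACA proteins were higher with MC903 in wild type skin. Fibrillarin (Fbl), the methyltransferase, averaged 31.0 ± 2.0 FPKM in MC903 wild type skin and 8.46 ± 0.60 FPKM in untreated wild type skin (SD, n = 3 each), a log2 fold change of 1.81 (SE 0.09). Nop56 and Nop58, the scaffold of the C/D particle, rose by 1.94 and 0.73, and Snu13, which binds the C/D boxes, by 0.68. Dyskerin (Dkc1), the pseudouridine synthase, rose by 0.91, and its partners Nhp2, Nop10 and Gar1 by 2.22, 0.86 and 1.49. In knockout skin all 4 C/D proteins were higher with MC903, and of the H/ACA proteins Dkc1 and Nhp2 were, with log2 fold changes of 1.01 and 0.72. Nop10 and Gar1 gave 0.26 and 0.18 there, without a call.

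These mRNAs went in different directions between the genotypes given MC903. Fbl averaged 15.6 ± 1.3 FPKM in MC903 knockout skin and 31.0 ± 2.0 FPKM in MC903 wild type skin, and Nop56 averaged 18.4 ± 1.9 FPKM in MC903 knockout and 36.5 ± 2.3 FPKM in MC903 wild type skin (SD, n = 3 each). Both were called lower, by -0.97 each (SE 0.09 and 0.08). Nop58 was called higher by 0.33 (SE 0.10), and Snu13 and Dkc1 were not called (-0.13 and -0.10). Nhp2, Nop10 and Gar1 were lower, by -1.14, -0.70 and -1.14. In untreated skin 0 of the 8 were called between genotypes by limma. Relative to all genes tested, the median between genotypes with MC903 was -0.52 for the C/D proteins and -0.89 for the H/ACA proteins as deposited, and -0.49 and -0.86 under TPM scaling.

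**Figure D5:**
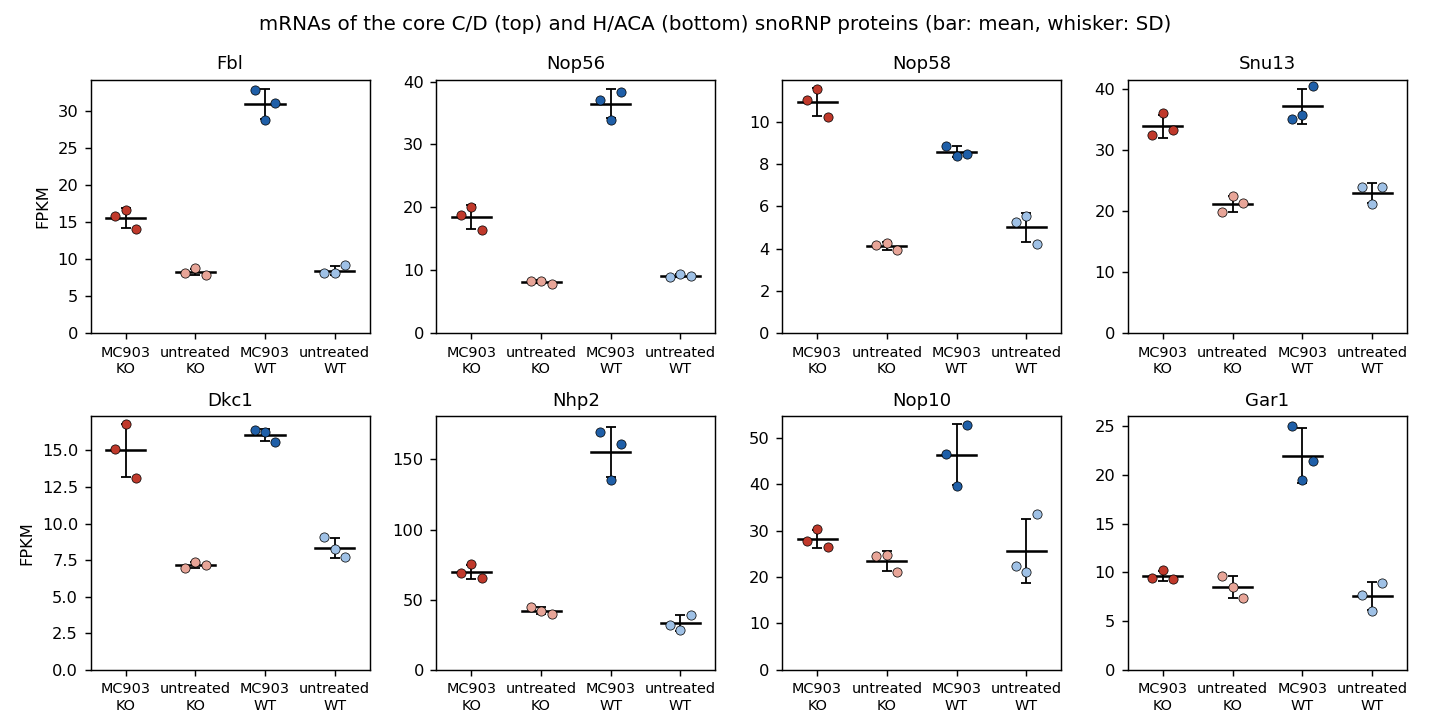
FPKM of the mRNAs of the 4 core C/D proteins (top) and the 4 core H/ACA proteins (bottom) in each library, with the mean and SD of 3 libraries per group. All 8 are higher with MC903 in wild type skin, and Fbl, Nop56, Nhp2, Nop10 and Gar1 are lower in MC903 knockout than in MC903 wild type skin while Nop58 is higher.

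Wider lists of the pathway gave the following counts. Of 16 genes of snoRNP assembly and snoRNA maturation, 10 were higher and 0 lower with MC903 in wild type skin, and 8 higher and 0 lower in knockout skin. Scaling to TPM moved the median log2 fold change of all genes tested to -0.40 with MC903 in wild type skin and 0.24 between genotypes with MC903, against 0.02 and -0.03 as deposited. The median of the 16 in wild type skin, 0.34 as deposited, was -0.09 under TPM, and relative to all genes tested it was 0.32 under both. Of 28 genes of RNA polymerase I and rRNA processing, 26 were higher with MC903 in wild type skin and 23 in knockout skin, with 0 lower in either. In MC903 knockout against MC903 wild type skin, 13 of these 28 were lower and 2 higher. Relative to all genes tested, the median of the 28 was 0.75 with MC903 in wild type skin and -0.24 between genotypes with MC903 as deposited, and 0.77 and -0.21 under TPM.

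Non-coding transcripts known to host snoRNAs were also listed. Of 17 tested, 12 were higher and 3 lower with MC903 in wild type skin, and 7 higher and 4 lower in knockout skin. The genotypes given MC903 differed with 2 higher and 13 lower in knockout skin. Gas5, a transcript degraded when translated, averaged 31.8 ± 1.1 FPKM in MC903 knockout skin and 55.0 ± 8.9 FPKM in MC903 wild type skin (SD, n = 3 each). Snhg12 averaged 4.18 ± 0.73 FPKM in MC903 knockout skin and 11.7 ± 1.7 FPKM in MC903 wild type skin, and Snhg20 averaged 1.52 ± 0.14 FPKM in MC903 knockout and 8.25 ± 1.7 FPKM in MC903 wild type skin. Snhg18 was higher in MC903 knockout than in MC903 wild type skin, by 0.51 (SE 0.12).

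Some of the best known snoRNAs were near or at 0. Of 14 rows for the snoRNAs of rRNA cleavage (U3, U8, U13, U14, U17 and U22), 13 were listed at 0 in all 12 libraries. The remaining row, Snord118 (U8), averaged at most 0.258 FPKM in any group and was below the level. All 19 listed Snord rows of imprinted clusters, most of them copies of Snord116, were listed at 0. That list was taken by Snord names only. DQ267102 and Gm24564, within the imprinted transcript Rian, were among the snoRNA genes at the level.

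Other small RNA classes were measured in the same way. With MC903 in wild type skin, 13 of 111 snRNA genes were called higher and 8 lower, with a median log2 fold change of 0.14. Of 203 miRNA genes 31 were called higher and 4 lower (median 0.41), and of 10 scaRNA genes 0 were called. Between genotypes with MC903, 3 miRNA genes were higher and 35 lower (median -0.70). The snoRNA genes were not tested against these classes.

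Markers of skin cell types moved in the same comparisons. The 4 basal keratinocyte markers summed to 3429 to 4795 FPKM in MC903 knockout libraries, 1725 to 1983 in untreated knockout, 12140 to 17030 in MC903 wild type and 1327 to 1678 in untreated wild type libraries. All 4 were called higher with MC903 in wild type skin and lower in MC903 knockout than in MC903 wild type skin. The 4 suprabasal markers summed to 1217 to 2276 FPKM in MC903 knockout, 2947 to 3387 in untreated knockout, 2405 to 6946 in MC903 wild type and 1014 to 1814 in untreated wild type libraries. Of these, 3 were called lower in MC903 knockout than in MC903 wild type skin. The 4 fibroblast markers had sums of 1279 to 1628 FPKM in MC903 knockout, 3347 to 3853 in untreated knockout, 388 to 467 in MC903 wild type and 843 to 1545 in untreated wild type libraries. The 4 macrophage markers summed to 286 to 396 FPKM in MC903 knockout, 130 to 145 in untreated knockout, 79.6 to 89.8 in MC903 wild type and 85.1 to 107 in untreated wild type libraries. The 4 neutrophil markers summed to 2062 to 2721 FPKM in MC903 knockout, 24.8 to 186 in untreated knockout, 994 to 1216 in MC903 wild type and 8.39 to 29.9 in untreated wild type libraries. With MC903 in wild type skin, all 4 neutrophil and 3 suprabasal markers were called higher, and all 4 fibroblast, adipocyte, Schwann and endothelial markers lower. Of the other lists, 2 skeletal muscle markers were lower, 1 macrophage marker was higher and 1 lower, 1 T cell marker was higher and 2 lower, and 0 hair shaft markers were called. In MC903 knockout against MC903 wild type skin, all 4 fibroblast, macrophage, Schwann and endothelial markers were called higher and all 4 skeletal muscle markers lower. Of 4 each, 2 neutrophil, 2 adipocyte and 1 T cell markers were higher and 0 hair shaft markers were called. No marker on the 11 lists was at 0 in all libraries. The part of these cell types in the snoRNA differences was not tested, and in whole skin more cells of a type and more RNA per cell cannot be told apart.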

How the data were processed

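The deposited table of FPKM per gene for 12 skin libraries holds values the authors had scaled. Reads were counted with featureCounts on mm10, per the submitters' processing notes. Aligner and annotation release: not given in the sources used here. Per the labels' protocols, RNA was selected with poly-T beads and primed with random hexamers. Samples of dorsal root ganglion, 3 in number, were left out.

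FPKM multiplied by the deposited gene length gave whole reads for 100% of values (tolerance 0.01), and these recovered reads are the depth. The library size behind the FPKM was not the sum of these reads. It was 0.917 to 0.964 times that sum in MC903 wild type and 1.06 to 1.11 times in untreated wild type libraries. Genes with FPKM of at least 0.5 in at least 3 libraries, 17646, were fitted with limma (3.58.1, R 4.3.3) on log2(FPKM + 0.5) in 4 groups, with 8 residual degrees of freedom, eBayes with a mean trend, two-sided tests and Benjamini-Hochberg adjustment over all genes (threshold 0.05). All adjusted p-values are from limma. The procedure was tested on simulated data, but its pass mark for recovery was set on deep genes only. Recovery of short genes with few reads, such as these snoRNA genes, is not reported here. Counting error alone is large at a few reads per gene.

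A host was the table row on the same strand enclosing the snoRNA, protein-coding before other biotypes, then the shortest. Positions and lengths of all 143 genes matched GENCODE M21. Named genes were up to 10 per direction and comparison by adjusted p, the 8 C/D and 8 H/ACA genes with most reads, those nearest the level, their hosts and the lists. Of these, 1 C/D gene is not reported here. Others, such as the members of shared hosts and the hosts Rabggtb and Gsr, were named after their values were seen. Members and lists were chosen with earlier results of these data known. The split into ribosomal protein hosts, other hosts and no host was not planned beforehand. Equal replicate numbers did not pair libraries. Alternatives were pseudocounts, filters, voom on recovered reads, TPM and total-read scaling, robust moderation, a replicate block, fits of only the groups compared and leaving out each library. Python 3.11.15 with pandas 2.3.3 and numpy 2.4.6 was used.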

Additional observations from a re-analysis of the deposited data

Results flagged for a closer look

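The MC903 response differed between genotypes, by limma's test of the difference itself (adjusted p below 0.05), in 23 of the 143 snoRNA genes. Values are the response in knockout skin minus that in wild type skin on the log2(FPKM + 0.5) scale, for the genes named by rule. The response was larger in knockout skin for Gm26440 (1.91). It was smaller for Snord72 (-2.09), Snora31 (-2.51), Snora17 (-2.47), Snora78 (-2.45), Gm25835 (-2.87), Gm24494 (-2.73) and Gm26493 (-1.23). It was also smaller for Snord34 (-2.67), Gm26109 (-3.69) and Gm25588 (-1.85), whose untreated wild type libraries had 0 reads, so that these fitted values depend on the pseudocount and are no bounds. Gm25588 reached the level of 0.5 FPKM only through the MC903 wild type libraries, so the choice of genes fixed its direction and its call supports nothing. Over all genes tested, 39.7% were called for this difference. Among the 25 genes with at least 10 reads in at least 3 libraries, 10 were called, but a gene could pass that filter through the MC903 wild type libraries alone. The share over all genes under that filter is not reported here.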

How the results depend on the processing

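Calls among the 143 snoRNA genes numbered 51 for MC903 in wild type skin, 11 for MC903 in knockout skin, 1 between untreated genotypes, 44 between MC903 genotypes and 23 for the difference of responses. Over all genes tested, the shares called were 63.0%, 47.9%, 11.7%, 52.1% and 39.7% in the same order. In that order, the alternatives changed the counts of snoRNA genes as follows. With no filter on low values these were 41, 6, 0, 29 and 17. With at least 10 reads in at least 3 libraries, which left 25 genes in the test, they were 16, 2, 0, 18 and 10, all higher with MC903 and lower in knockout skin. A gene could pass this filter through the MC903 wild type libraries alone, so it favours genes high there, and these directions are in part fixed by it. Limma voom on recovered reads gave 48, 7, 0, 35 and 15, against 11109, 8579, 2434, 9201 and 6975 of all 17646 genes tested. Scaling to TPM gave 40, 10, 1, 28 and 19 and moved the median log2 fold change of all genes tested for MC903 in wild type skin to -0.40, against 0.02 as deposited, while the median of the 143 was 0.86. Scaling by total reads moved that median to -0.15. Leaving out each library in turn gave 45 to 53, 9 to 14, 0 to 5, 34 to 49 and 20 to 27 calls. Without untreated wild type replicate 3 there were 5 calls between untreated genotypes, without replicate 1 or 2 of that group, untreated knockout replicate 3 or MC903 knockout replicate 1 there were 2, and without untreated knockout replicate 1 there were 0. Pseudocounts of 0.1 and 1, robust moderation and fits of only the groups compared stayed within 1.5 times of these counts. For the settings other than voom, the replicate block below included, the share over all genes is not reported here. Their counts therefore show how the calls depend on the setting and are no result about snoRNA genes. The cause of the changes was not tested.

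Replicate numbers did not pair the libraries, with correlations of -0.13 to 0.17 over 18 same-numbered pairs and 3 above 0.1. The fit with a replicate block gave 54, 10, 2, 42 and 25 calls, and 6 of 18 comparisons of a library with those of another group were best with its own number. Of 1035 repeats of 49 named results, 955 kept their call, 80 kept their direction and lost it, and 0 reversed. The call held in every repeat for 36 of the 49. Gm22952 with MC903 in wild type skin and Gm22571 with MC903 in knockout skin lost theirs in 13 of 21 repeats each. In knockout skin Snora41 and Snora62 lost theirs in 8, Snord35a in 7 and Snord65 in 6.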
